A study of Homo sapiens with 13 samples.

Results

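S9.6 peaks at 10 target genes of the transcription factor p53 were examined in U2OS cells, a human osteosarcoma line. The genes were CDKN1A, MDM2, XPC, GADD45A, BTG2, SESN1, SESN2, TP53INP1, ZMAT3 and PHLDA3. A peak was assigned to a gene when it overlapped the RefSeq span of that gene in hg38 or the 2 kb on either side. This gave 42 peaks of 38099 on chromosomes 1 to 22 and X, namely 19 of 12687 after transfection with an siRNA against REXO4 (siREXO4), 19 of 20954 after an siRNA against RNaseH1 (siRNaseH1) and 4 of 4458 after a control siRNA (siCtrl). DRIP-seq, an immunoprecipitation of sonicated DNA with the S9.6 antibody against DNA-RNA hybrids, was made from 3 IP libraries per transfection, in a series of 13 samples that also holds inputs and 1 IgG library. The labels describe the siCtrl cells as WT and the other 2 groups as knockdowns of the named gene. Neither the siRNA dose nor its duration is given in the labels used here. Every value comes from a list of peaks that the authors called after merging the 3 IP libraries of a transfection. Such values carry no replicate error, and no test between transfections was possible.

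p53 is a stress-activated transcription factor that binds response elements near its target genes and raises their transcription after DNA damage. CDKN1A, GADD45A and BTG2 restrain the cell cycle, MDM2 feeds back on p53, PHLDA3 restrains AKT, XPC recognises damaged DNA, the sestrins SESN1 and SESN2 restrain mTORC1, TP53INP1 promotes cell death and autophagy, and ZMAT3 encodes an RNA-binding zinc finger protein. An R-loop is a DNA-RNA hybrid with the displaced DNA strand, and such structures often form just downstream of CpG-rich transcription start sites (TSS). RNaseH1 degrades the RNA strand of a hybrid, and REXO4 belongs to a family of predicted exonucleases. The study asked whether both act on R-loops in the same regions.

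Peak lists do not measure transcripts, so neither the knockdowns nor p53 activity can be read from them. Of 6 osteosarcoma and mesenchymal genes looked up, 1 held a siREXO4 peak, 2 held a siRNaseH1 peak and 0 held a siCtrl peak. The shares of all protein-coding genes were 33.7%, 39.2% and 12.0%. None of 5 genes of other cell types (PTPRC, CD3E, ALB, KRT5 and HBB) held a peak in any list. Neither did 4 of the 6 osteosarcoma and mesenchymal genes or 53.3% of all protein-coding genes, so these look-ups do not identify the cells. The number of fragments at a summit and the caller's local background were solved from the deposited fold enrichment and p-value. The lowest background of a list was read as its genome-wide expected coverage and was 1.41 fragments in siREXO4, 1.36 in siRNaseH1 and 1.28 in siCtrl. Relative coverage below is fragments at the summit divided by this value. Every ratio of coverage between lists and every scaled calling limit rests on it as a stand-in for depth, since the control library and its scaling are not stated. Intervals are exact 95% Poisson intervals and cover counting error only.

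Promoter windows of members that a peak overlapped or did not overlap are shown first. Windows of CDKN1A, XPC and MDM2 overlap peaks, while those of BTG2 and ZMAT3 hold no peak. They run from 250 bases before to 50 bases after the RefSeq TSS (GRCh38.p14, 5′ to 3′ on the strand of the gene), with CpG dinucleotides in capitals. The windows of CDKN1A (chr6:36678464-36678763, plus strand), XPC (chr3:14178552-14178851, minus strand) and the downstream MDM2 promoter (chr12:68808767-68809066, plus strand) each overlapped peaks of both knockdowns. Those of the upstream MDM2 promoter (chr12:68807922-68808221, plus strand), BTG2 (chr1:203305269-203305568, plus strand) and ZMAT3 (chr3:179071760-179072059, minus strand) lay under no peak. The MDM2 peaks overlapped the downstream window but ended before its TSS. Of the 7 members in the promoter table, 3 had a window under a siREXO4 peak, 3 under a siRNaseH1 peak and 0 under a siCtrl peak, against 17.1%, 17.6% and 1.95% of 15812 protein-coding genes.
CDKN1A: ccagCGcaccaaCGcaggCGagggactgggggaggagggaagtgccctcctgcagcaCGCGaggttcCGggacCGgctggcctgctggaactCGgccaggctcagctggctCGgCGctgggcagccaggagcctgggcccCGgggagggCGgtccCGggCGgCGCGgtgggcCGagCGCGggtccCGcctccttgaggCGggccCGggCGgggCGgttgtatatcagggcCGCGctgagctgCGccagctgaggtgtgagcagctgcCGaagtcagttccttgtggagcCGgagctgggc
XPC: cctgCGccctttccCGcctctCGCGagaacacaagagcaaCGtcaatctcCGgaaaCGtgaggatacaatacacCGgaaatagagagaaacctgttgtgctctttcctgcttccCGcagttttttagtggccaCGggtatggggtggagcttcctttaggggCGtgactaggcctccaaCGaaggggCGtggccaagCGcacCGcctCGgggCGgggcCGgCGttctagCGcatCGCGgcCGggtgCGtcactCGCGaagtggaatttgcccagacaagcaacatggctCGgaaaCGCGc
MDM2 downstream: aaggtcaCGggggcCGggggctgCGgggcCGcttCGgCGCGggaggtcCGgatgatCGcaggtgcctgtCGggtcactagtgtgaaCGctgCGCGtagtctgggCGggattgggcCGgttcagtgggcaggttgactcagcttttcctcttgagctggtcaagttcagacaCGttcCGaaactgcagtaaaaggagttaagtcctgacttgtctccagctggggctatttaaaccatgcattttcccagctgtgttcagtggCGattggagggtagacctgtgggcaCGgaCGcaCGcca
MDM2 upstream: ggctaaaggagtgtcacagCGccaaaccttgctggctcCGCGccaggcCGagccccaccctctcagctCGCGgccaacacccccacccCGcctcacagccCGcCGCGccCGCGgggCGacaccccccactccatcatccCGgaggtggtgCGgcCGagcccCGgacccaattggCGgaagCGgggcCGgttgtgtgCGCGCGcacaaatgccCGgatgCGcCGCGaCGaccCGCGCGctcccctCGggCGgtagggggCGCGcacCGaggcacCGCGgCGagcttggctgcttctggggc
BTG2: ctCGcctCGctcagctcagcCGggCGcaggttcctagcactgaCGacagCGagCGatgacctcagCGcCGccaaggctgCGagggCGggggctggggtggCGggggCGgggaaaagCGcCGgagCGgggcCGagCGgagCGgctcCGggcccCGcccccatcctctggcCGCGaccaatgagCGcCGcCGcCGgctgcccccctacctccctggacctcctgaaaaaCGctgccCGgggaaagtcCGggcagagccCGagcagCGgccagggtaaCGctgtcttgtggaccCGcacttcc
ZMAT3: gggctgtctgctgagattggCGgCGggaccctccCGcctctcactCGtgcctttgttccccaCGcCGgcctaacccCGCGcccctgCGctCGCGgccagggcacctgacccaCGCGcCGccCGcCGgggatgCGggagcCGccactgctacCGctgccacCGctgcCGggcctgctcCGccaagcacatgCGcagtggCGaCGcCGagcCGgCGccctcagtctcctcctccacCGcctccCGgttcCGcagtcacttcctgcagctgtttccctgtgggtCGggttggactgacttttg

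The 3 windows shown with a peak did not have more CpG than the 3 shown without. The CDKN1A window was 74.3% G and C with 29 CpG, the XPC window 60.3% with 29 and the downstream MDM2 window 59.7% with 21. Without a peak, the upstream MDM2 window was 74.7% G and C with 39 CpG, the BTG2 window 73.3% with 34 and the ZMAT3 window 71.7% with 32. GC skew, the excess of G over C divided by their sum on the gene's own strand, was 0.175 at CDKN1A, 0.196 at the downstream MDM2 promoter and 0.0276 at XPC. It was -0.107 at the upstream MDM2 promoter, -0.00909 at BTG2 and -0.172 at ZMAT3. Among these 6 windows the 3 that overlapped peaks thus had the higher skew and the fewer CpG. This rests on where the windows end and on which were chosen. At MDM2 the siREXO4 peak began at 68808245, just past the end of the upstream window at 68808221. Both knockdown peaks there ended before the downstream TSS. The 2 MDM2 windows are thus split by the window limits and not by signal at the TSS. Other member windows without a peak differed from those shown. Another ZMAT3 window, of 37.7% G and C, had 2 CpG and a skew of 0.381. The SESN2 window had 25 CpG and a skew of 0.0448. The 3 SESN1 windows had 28 CpG at the outermost TSS, 38 and 18, with skews of 0.102, -0.0138 and 0.069. Over 22132 windows of protein-coding genes the median was 62.3% G and C, 21 CpG and a skew of 0.0204, and over the 2593 windows under peaks of both knockdowns it was 68.3%, 30 and 0.0309. The box GGGCGG, searched on both strands, occurred 4 times in the CDKN1A window, 3 times in the BTG2 window and 1 time in each of the other 4, and 56.3% of all windows held it. A match to the p53 half-site consensus occurred in none of the 6 windows shown, against 6.23% of all windows. A SESN1 window without a peak (chr6:109008939-109009238) held 1. Sites that depart from the consensus were not counted, so a window without a match can still hold a p53 site.

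With either knockdown, more of the p53 target genes held a peak than in control cells, as did all genes, and the knockdown lists are longer than the siCtrl list. A siREXO4 peak was found at 6 of 10 genes, against 33.7% of 19974 protein-coding genes. A siRNaseH1 peak was found at 8 of 10, against 39.2%, and a siCtrl peak at 4 of 10, against 12.0%. ZMAT3 alone held no peak in any list, as did 53.3% of protein-coding genes. BTG2 and SESN2 held a siRNaseH1 and no siREXO4 peak, as did 11.6%. The share of genes with a peak differed by gene length, so the members were also read by length. Of the 3 under 10 kb (GADD45A, PHLDA3 and BTG2), 2 held a siREXO4, 3 a siRNaseH1 and 1 a siCtrl peak, against 22.8%, 24.6% and 5.89% of all genes of that length. Of the 5 from 10 to 50 kb (CDKN1A, SESN2, TP53INP1, XPC and MDM2), 4, 5 and 2 held such peaks, against 34.8%, 41.7% and 10.6%. Neither of the 2 members of 50 kb or longer, SESN1 and ZMAT3, held a knockdown peak and 1 held a siCtrl peak, against 42.2%, 49.0% and 19.2%. A gene list of 10 chosen with these results in view gives a description of these genes and not of p53 targets in general.

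**Figure D1:**
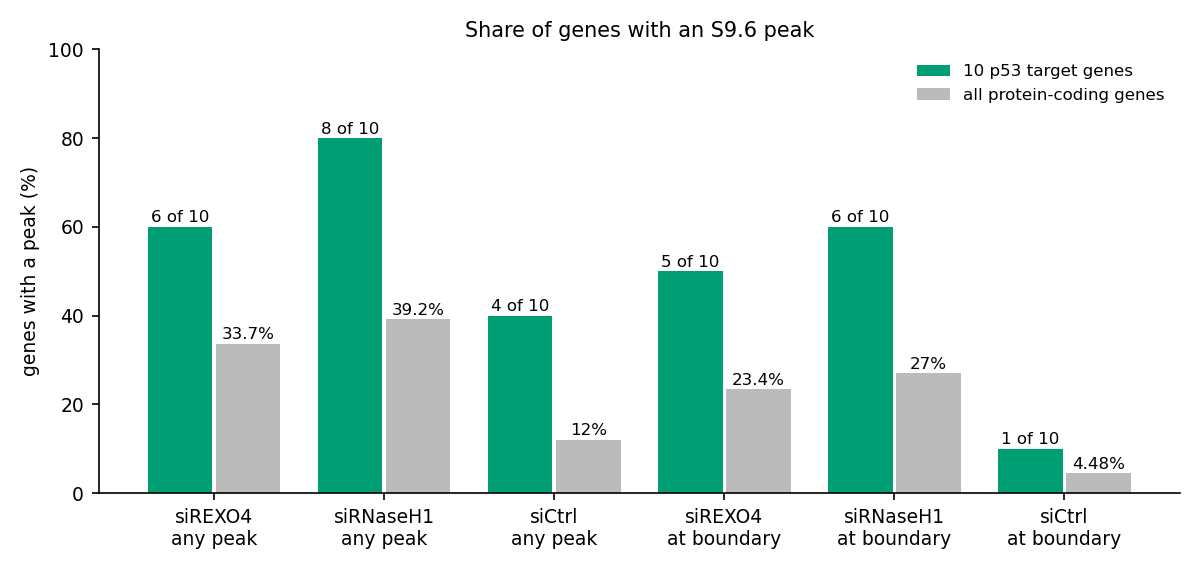
Share of genes (y axis, percent) with an S9.6 peak in the gene or its 2 kb flanks, and with a peak summit within 2 kb of an outer boundary of the gene, for the 10 p53 target genes (green) and all 19974 protein-coding genes (grey). The share of p53 target genes was above that of all genes in each of the 6 pairs, and the count behind each green bar is printed on it.

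A knockdown peak with no siCtrl peak overlapping it by at least 1 bp was counted as gained. Gained siREXO4 peaks occurred at 5 of 10 genes (CDKN1A, MDM2, XPC, TP53INP1 and PHLDA3), against 31.3% of protein-coding genes. Gained siRNaseH1 peaks occurred at the same 5 genes and at BTG2 and SESN2, 7 of 10 in all, against 37.6%. Both sets are defined against the same siCtrl list. The siRNaseH1 count rested on weak peaks. With only peaks of at least 5-fold enrichment in each list it was 3 of 10, against 27.8% of protein-coding genes, and with the longer lists cut to the 4458 peaks with the smallest p-values it was 2 of 10, against 14.2%. The siREXO4 count was 5 of 10 under both limits, against 19.9% and 15.6%. To see whether a gained peak could have been called in control cells, its fragments and background were scaled to the siCtrl background and compared with the fewest fragments that reach the lowest p-value of the siCtrl list. Of the 16 gained siREXO4 peaks, 5 reached 2 times that limit, 2 stayed under it and the median was 1.54 times. Of the 16 gained siRNaseH1 peaks, 2 reached 2 times the limit, 0 stayed under it and the median was 1.39 times. The same values over all gained peaks are not given here, so these describe the member peaks and do not set them apart.

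At gene boundaries, meaning a summit within 2 kb of an outer boundary of the same gene, a gained siREXO4 peak was found at 4 of 10 genes, against 21.1% of protein-coding genes, and a gained siRNaseH1 peak at 5 of 10, against 25.1%. With peaks of at least 5-fold enrichment the siRNaseH1 count was 1 of 10, below the 18.2% of all genes, and with lists of equal length it was 1 of 10, against 10.6%. Counting all peaks, the siREXO4, siRNaseH1 and siCtrl lists had a boundary peak at 5, 6 and 1 of the 10 genes, against 23.4%, 27.0% and 4.48% of protein-coding genes. The siCtrl boundary peak was that of GADD45A. Boundary peaks of the siREXO4 list had a median fold of 17.6 and body peaks 5.11. In the siRNaseH1 list the medians were 4.22 and 4.59. MDM2 held 8 of the 11 siREXO4 and 8 of the 12 siRNaseH1 body peaks, and its own siREXO4 boundary peaks had folds of 4.58 and 4.04, so these medians largely set MDM2 against the other genes. The outer boundary can miss a start site within the gene, and CDKN1A is such a case. Its RefSeq span begins upstream of the listed TSS, so its peaks counted as gene body although their summits lay 123 bp (siREXO4) and 120 bp (siRNaseH1) downstream of that TSS.

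**Figure D2:**
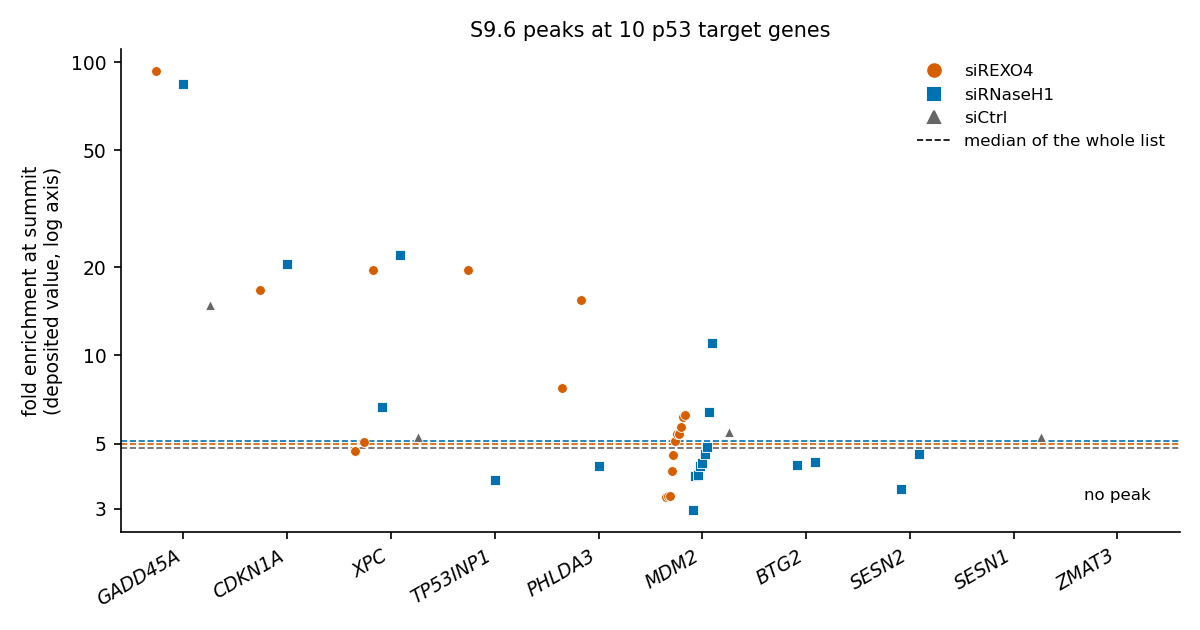
Deposited fold enrichment at the summit (y axis, log scale) of every S9.6 peak at the 10 genes (x axis), with siREXO4, siRNaseH1 and siCtrl peaks in separate columns and the median of each whole list as a dashed line. GADD45A stands highest in all 3 lists, with 93.1, 84.2 and 14.8, the MDM2 peaks lie around the medians, and ZMAT3 has no peak.

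Among the arrest genes, GADD45A had the strongest signal of all members in each list. GADD45A encodes a growth arrest protein induced by DNA damage that is itself known to bind R-loops. Its peak covered the lower-coordinate boundary of the 3134 bp gene (chr1:67685201-67688334) and was 2135 bp wide in siREXO4 cells (chr1:67684673-67686807), 2130 bp in siRNaseH1 cells (chr1:67684689-67686818) and 1137 bp in siCtrl cells (chr1:67684934-67686070). The fold enrichment was 93.1 in siREXO4, 84.2 in siRNaseH1 and 14.8 in siCtrl. Within their lists these peaks ranked 8 of 12687, 21 of 20954 and 42 of 4458. At the summit 286 fragments (254 to 321) were found in siREXO4, 424 (385 to 466) in siRNaseH1 and 55 (41.4 to 71.6) in siCtrl. Relative to the genome-wide background, coverage was 203 (180 to 228) in siREXO4, 312 (283 to 344) in siRNaseH1 and 43.1 (32.5 to 56.1) in siCtrl. The knockdown values were 4.71 and 7.25 times siCtrl. On this scale both knockdowns lay above the control with counting intervals that did not overlap. These intervals hold no spread between cultures. Over all siCtrl peaks that overlapped a knockdown peak, the median ratio was 1.13 for siREXO4 (1847 peaks) and 1.61 for siRNaseH1 (2050 peaks), and 4.01% and 3.46% of those peaks had a higher ratio than GADD45A. The fold was lower in siRNaseH1 than in siREXO4 while the coverage was higher, and the local background was 2.98 times the genome-wide value in siRNaseH1, 1.48 times in siREXO4 and 2.18 times in siCtrl. As a siCtrl peak was present, GADD45A is not among the gained genes, so the gained counts miss the strongest of the 10. The 3 summits lay within 22 bp, at 130, 115 and 108 bp inside the boundary.

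CDKN1A encodes p21, the cyclin-dependent kinase inhibitor through which p53 arrests the cell cycle. It held 1 siREXO4 peak (chr6:36678536-36679670, fold 16.7), 1 siRNaseH1 peak (chr6:36678393-36679495, fold 20.5) and no siCtrl peak within 80.1 kb. These ranked 431 of 12687 and 423 of 20954. The summits were 3 bp apart and sat just downstream of the TSS, past the CpG-rich window printed above, which the siREXO4 peak covered over 228 and the siRNaseH1 peak over 300 of its 300 bases. There were 48 fragments (35.4 to 63.6) in siREXO4 and 73 (57.2 to 91.8) in siRNaseH1, or 34.1 and 53.8 times the genome-wide background. The same coverage at the siCtrl background would have been 4.83 and 6.86 times the siCtrl calling limit. DINOL, a divergent lncRNA gene whose TSS lies 155 bp away, overlapped both peaks at its start, and DRIP-seq without strand does not tell the transcripts apart. The classical p53 sites of CDKN1A are known to lie farther upstream than either peak reaches.

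BTG2 encodes an antiproliferative protein. It held no siREXO4 or siCtrl peak and 2 weak siRNaseH1 peaks, inside the gene 1792 bp before its upper boundary (chr1:203307681-203308004, fold 4.22) and 1248 bp past it (chr1:203310718-203311033, fold 4.32). They had 13 fragments (6.92 to 22.2) and 15 (8.40 to 24.7), 1.35 and 1.56 times the siREXO4 calling limit and 1.22 and 1.41 times that of siCtrl after scaling. At this coverage a difference between the lists was not detectable. The BTG2 promoter window, of high CpG content, held no peak in any list.

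MDM2, the ubiquitin ligase that degrades p53 and is itself a p53 target, differed from the other members in having many weak peaks along its 42.5 kb span (chr12:68808172-68850686). It held 11 siREXO4 peaks, 9 siRNaseH1 peaks and 1 siCtrl peak. A gene held 5 or more peaks in 1.22% of protein-coding genes for siREXO4 and in 5.52% for siRNaseH1, and in 1.09% and 5.29% of those of 10 to 50 kb. The fold enrichments ran from 3.29 to 6.28 in siREXO4 and from 2.97 to 11 in siRNaseH1, and the siCtrl peak had 5.48. Summits held 9 to 20 fragments in siREXO4, 12 to 25 in siRNaseH1 and 15 in siCtrl. Of the 11 siREXO4 peaks, 8 overlapped a siRNaseH1 peak, with summits 14 to 212 bp apart. Over all chromosomes, the 12687 siREXO4 peaks formed 7068 overlapping pairs with siRNaseH1 peaks. A peak can be in more than 1 pair, so at most 7068 of the 12687 overlapped a siRNaseH1 peak. The exact share is not given here. Relative coverage at the 8 MDM2 pairs was 7.81 to 14.2 in siREXO4 and 8.84 to 18.4 in siRNaseH1. It was lower in siREXO4 at each, with counting intervals that overlapped at each. Local background reached 2.5 times the genome-wide value in siREXO4 and 3.48 times in siRNaseH1.

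The gene has 2 promoters, of which the downstream is the p53-responsive one. Here the upstream window was free of peaks, and the weak peaks of siREXO4 (chr12:68808245-68808879, fold 4.58) and siRNaseH1 (chr12:68808729-68808994, fold 3.90) began after it and covered 113 and 228 bases of the downstream window. Their summits lay between the promoters, 494 bp (siREXO4) and 706 bp (siRNaseH1) after the upstream TSS and 351 and 139 bp before the downstream one. The peaks ended before the downstream TSS and held 11 fragments (5.49 to 19.7) and 12 (6.20 to 21.0). The highest MDM2 peak of the 3 lists lay 32442 bp (siREXO4), 32256 bp (siRNaseH1) and 32186 bp (siCtrl) from the upstream TSS and was present in all of them, with 20 fragments (12.2 to 30.9) in siREXO4, 25 (16.2 to 36.9) in siRNaseH1 and 15 (8.40 to 24.7) in siCtrl. These intervals overlapped. The siREXO4 peaks went on past the gene end, where CPM overlaps MDM2, with a peak just inside the 2 kb flank (chr12:68852353-68852971, fold 5.68) and others outside it at 4.53 and 4.57, while neither of the other lists had a peak at these places.

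PHLDA3 encodes a pleckstrin homology protein that keeps AKT from the membrane. At its upper boundary it held a siREXO4 peak (chr1:201468542-201469469, fold 15.5) and a siRNaseH1 peak (chr1:201468783-201469282, fold 4.19), and no siCtrl peak within 489 kb. These ranked 509 of 12687 and 16525 of 20954. The siREXO4 summit held 69 fragments (53.7 to 87.3) and the siRNaseH1 summit 19 (11.4 to 29.7), with relative coverage of 49.0 (38.1 to 62.0) and 14.0 (8.43 to 21.9). A second locus lay below the gene and shows what the 2 kb limit does. Its siREXO4 peak (chr1:201461267-201462312, fold 7.75) ended just inside the limit, and its siRNaseH1 peak (chr1:201461140-201462036, fold 9.06) ended just outside and is not among the 42. Relative coverage there was 22 in siREXO4 and 22.8 in siRNaseH1, so the lower siRNaseH1 value at the upper boundary was not shared by the neighbouring locus.

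XPC encodes the damage sensor of global genome nucleotide excision repair. Its promoter peak had a fold of 19.6 in siREXO4 (chr3:14177887-14178936) and 22 in siRNaseH1 (chr3:14177803-14178920), with no siCtrl peak there. Summits lay 215 and 212 bp downstream of the XPC TSS. They held 99 fragments (80.5 to 121) in siREXO4 and 88 (70.6 to 108) in siRNaseH1, with relative coverage of 70.3 and 64.8, and these intervals overlapped. The same coverage would have been 6.90 and 7.52 times the siCtrl calling limit. LSM3, which encodes an Sm-like protein of the U6 snRNP, starts 216 bp away on the opposite strand, and both peaks covered its start, so the signal lay over a divergent gene pair. A peak of all 3 lists near the XPC gene end, beside the antisense gene XPC-AS1, held 14 fragments in siREXO4, 23 in siRNaseH1 and 13 in siCtrl, with folds of 5.06, 6.69 and 5.25. XPC thus had a locus near its end in all 3 lists and a promoter locus in the knockdown lists. Another peak (chr3:14155537-14155888, fold 4.73) was in the siREXO4 list alone, and its 15 fragments were 1.61 and 1.36 times the siRNaseH1 and siCtrl limits.

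**Figure D3:**
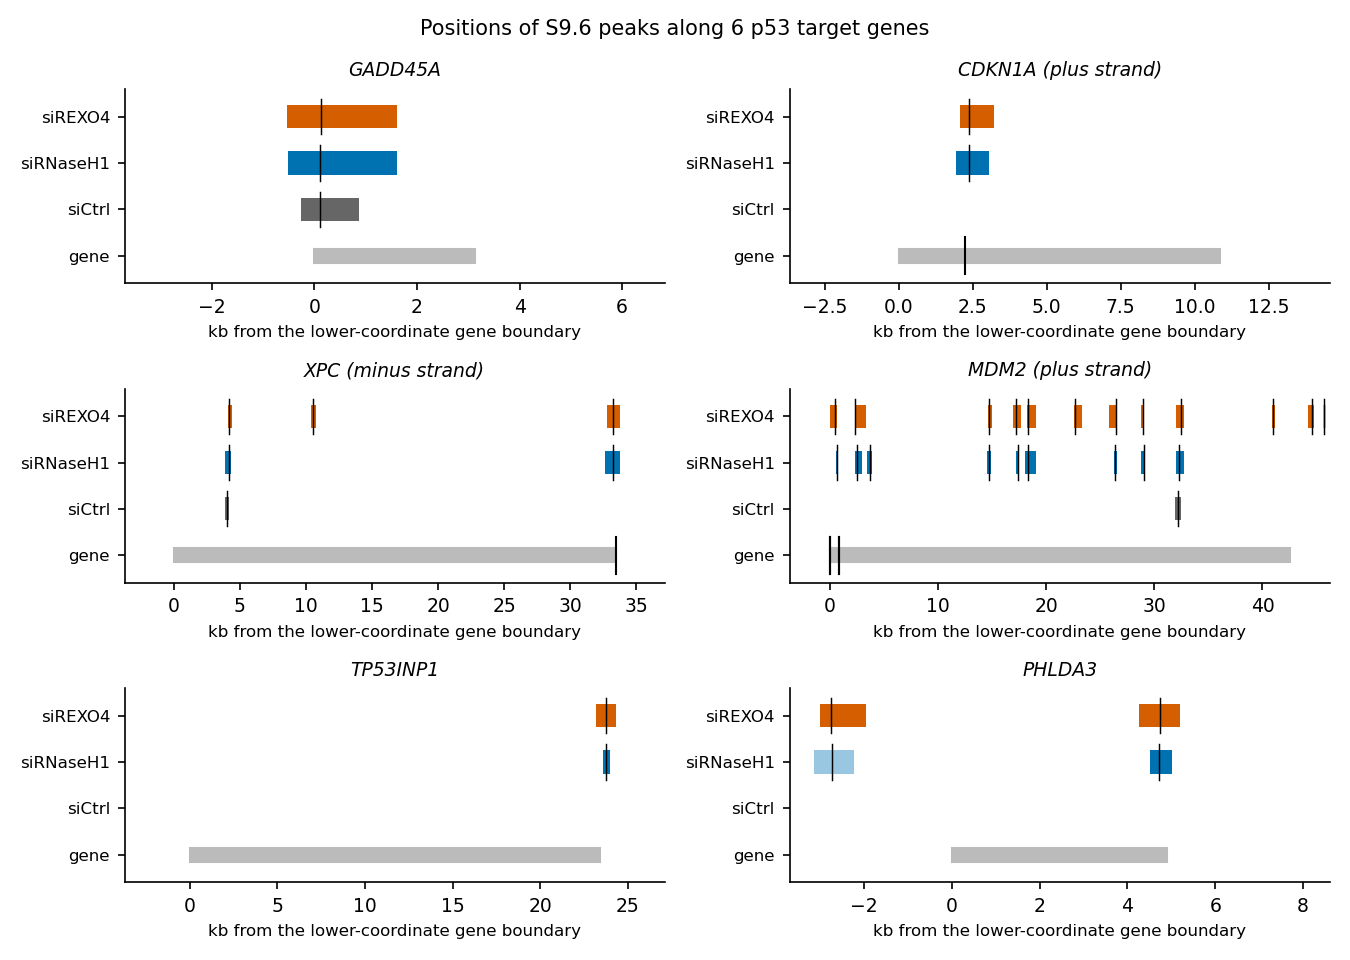
Peaks along 6 genes, in kb from the lower-coordinate boundary of each gene (x axis), with siREXO4, siRNaseH1 and siCtrl in rows, the RefSeq span in grey, listed TSS as black lines on it and peak summits as thin black lines. Pale peaks lie outside the 2 kb flanks. Knockdown summits coincide at GADD45A, CDKN1A, XPC and TP53INP1, and MDM2 has 11 siREXO4 and 9 siRNaseH1 peaks along its length.

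TP53INP1 encodes a nuclear protein that promotes p53-dependent cell death and autophagy. Its siREXO4 peak at the upper boundary (chr8:94949123-94950297) was 1175 bp wide with a fold of 19.6 and ranked 300 of 12687. The siRNaseH1 peak (chr8:94949535-94949973) was 439 bp wide with a fold of 3.76 and ranked 18577 of 20954. The siCtrl list had no peak within 505 kb. Fragments numbered 83 (66.1 to 103) in siREXO4 and 18 (10.7 to 28.4) in siRNaseH1. The summits were 8 bp apart, 349 and 357 bp outside the gene and within the span of NDUFAF6, a mitochondrial complex I assembly factor gene, and peaks without strand do not tell the transcripts of the overlapping genes apart.

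The sestrins, which restrain mTORC1 under stress, held weak peaks in single lists. SESN2 held 2 siRNaseH1 peaks in its body (chr1:28268198-28268619, fold 3.51, and chr1:28278346-28278662, fold 4.59), with 12 and 16 fragments, and no siREXO4 or siCtrl peak within 26.3 and 74.8 kb. After scaling, the 2 peaks were 1.25 and 1.66 times the siREXO4 calling limit and 1.13 and 1.5 times that of siCtrl. At this coverage a difference between the lists was not detectable. SESN1 was the reverse, with 1 siCtrl peak 7948 bp downstream of its outermost TSS (chr6:109086733-109087024, fold 5.27, 11 fragments, 5.49 to 19.7) and none in either knockdown. A siCtrl peak without a knockdown peak was found at 1.37% of protein-coding genes. Unchanged, the coverage of the SESN1 peak would have been 1.74 and 1.67 times the siREXO4 and siRNaseH1 calling limits. After scaling, its counting interval spanned both limits, so a loss in the knockdowns was not detectable. The nearest peaks to ZMAT3 lay 250481 bp away in siREXO4, 75981 bp in siRNaseH1 and 336961 bp in siCtrl.

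Where peaks of both knockdowns overlapped, TP53INP1 and PHLDA3 stood apart from the other members. In 7068 overlapping pairs over all chromosomes, the siREXO4 to siRNaseH1 ratio of relative coverage had a median of 0.76, with 0.372 and 1.51 as the 5th and 95th percentiles. The 14 pairs at the members had a median of 0.782. At CDKN1A (0.633), GADD45A (0.650), the XPC gene end (0.586) and the 8 MDM2 pairs (0.642 to 0.963) the value was lower in siREXO4, and at the XPC promoter it was 1.08. Of these 12 pairs, counting intervals of the knockdowns were apart at GADD45A alone. At TP53INP1 and PHLDA3 the ratio was 4.44 and 3.5, above the 95th percentile, and 12 and 21 of the 7051 pairs with a value had a higher one. At both, the counting intervals of the knockdowns did not overlap. With 1 merged list per knockdown, the spread between cultures behind these ratios is not known. Summits of the 14 pairs were a median of 35 bp apart, against 74 bp over all pairs, and 3 bp at CDKN1A and XPC, where 2.39% of all pairs were closer.

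**Figure D4:**
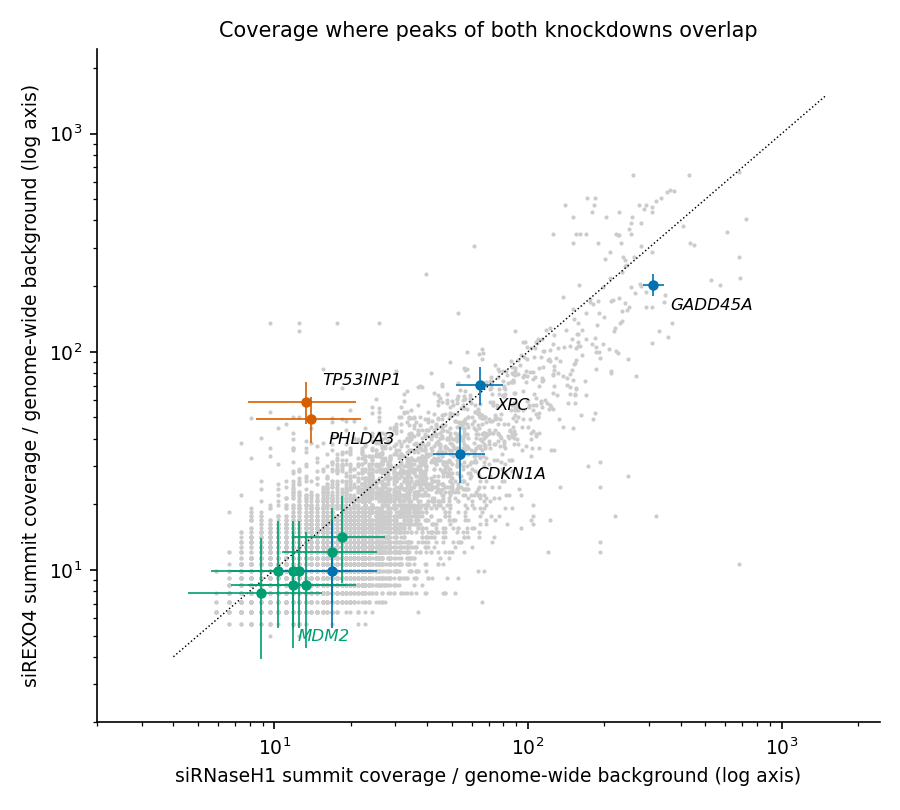
Relative coverage at the summit in siREXO4 (y axis) against siRNaseH1 (x axis), both on log axes, for all pairs of overlapping peaks (grey) and the 14 pairs at the members (coloured, with 95% Poisson intervals). The dotted line marks equal values. TP53INP1 and PHLDA3 (orange) lie at ratios of 4.44 and 3.5, MDM2 (green) lies in the low range, and the unlabelled blue point is the XPC gene-end locus.

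The wider p53 pathway was represented by 39 genes outside the 10. A siREXO4 peak was found at 27 of them, a siRNaseH1 peak at 27 and a siCtrl peak at 7, beside 33.7%, 39.2% and 12.0% of all protein-coding genes. Folds below are the highest in each gene and list, so they can come from different places in a gene. At gene boundaries, gained peaks occurred at 19 in siREXO4 and at 18 in siRNaseH1, and a siCtrl boundary peak at 2, beside 21.1%, 25.1% and 4.48% of all protein-coding genes. Among 8 p53 regulators, 6 held a siREXO4, 8 a siRNaseH1 and 3 a siCtrl peak. MDM4, the MDM2 relative that inhibits p53, led with folds of 16.2 in siREXO4 and 15.1 in siRNaseH1, both within 298 bp of its TSS. The checkpoint kinase gene CHEK1 had 4.51 and 9.83, the damage response gene TP53BP1 had 5.68 and 8.83 with a siCtrl peak of 3.95, and the checkpoint kinase gene ATR had 4.15 and 7.21.

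Of 10 apoptosis targets, 7 held a siREXO4, 6 a siRNaseH1 and 3 a siCtrl peak. For this list and those below, the shares of all protein-coding genes were 33.7%, 39.2% and 12.0%. Gene length was not taken into account in these lists. The death receptor gene TNFRSF10B had folds of 14.8 in siREXO4, 438 bp inside a boundary, and of 11.3 in siRNaseH1 and 4.77 in siCtrl, both more than 5 kb inside, and PMAIP1, which encodes the BH3-only protein NOXA, had 13.6 and 9.48. BBC3, which encodes PUMA, had 9.57, 10.3 and 3.44, with the knockdown peaks at or near MIR3190 and MIR3191. TP53I3 had 9.13 and 13.5 at summits outside the gene, 7517 and 7682 bp downstream of its TSS and at or near FAM228B. Among 8 arrest and feedback targets, 6, 7 and 1 held a siREXO4, siRNaseH1 or siCtrl peak. PLK2, a polo-like kinase gene, had a promoter peak in all 3 lists, of 38.4 in siREXO4, 60.2 in siRNaseH1 and 4.04 in siCtrl, and so, like GADD45A, was present in control cells. PLK3 had 8.93 and 13.9, SFN (14-3-3 sigma) 11.2 and 8.97, and CCNG1 (cyclin G1) 7.89 and 8.91 at or near NUDCD2. Of 7 repair and metabolism targets, 5 held a siREXO4, 4 a siRNaseH1 and 0 a siCtrl peak, with TIGAR at 4.87 and 8.26, DDB2 at 5.34 and 5.94, RRM2B at 5.60 and 4.41, and POLH at 5.22 in siREXO4 alone. Of 6 other targets, 3 held a siREXO4 and 2 a siRNaseH1 peak, with FBXW7 at 6.43 and 10.6, FBXO22 at 3.54 and 7.21, and RPS27L at 4.82 in siREXO4 alone.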

How the data were processed

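Peak lists of 3 transfections were used. Per the labels, each was called by the authors after merging a group's 3 IP libraries. Per the submitters' processing notes, MACS2 2.1.0.20150731, HISAT2 2.2.1, deepTools 3.5.1, Trim Galore 0.6.10, SAMtools 1.17, Cufflinks and the hg38 build were used, without roles. The notes used here do not give the control library, the handling of duplicates or the read depth. The deposited fold (a ratio) is the summit value over local background, the −log10 p and −log10 q deposited with it refer to that summit, and the deposited score was not used. Peaks on chromosomes 1 to 22 and X were kept. Genes and promoter sequences came from RefSeq tables (GRCh38.p14, the coordinates of hg38). Of the 10 members, 7 were in the promoter table. GADD45A, PHLDA3 and TP53INP1 were not.

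The fold was read as (fragments + 1) / (background + 1) and the p-value as the upper Poisson tail, and each of the 42 member peaks gave a whole number of fragments within 0.001 in −log10 p. The code recovered all of 2000 simulated summits. The members, gene lists and alternatives were chosen with earlier results of these data known. All 10 members are named, and in each pathway list up to 4 genes with the highest knockdown fold. A gene of these lists is not reported here. Alternatives covered peak thresholds, list length, flanks, the overlap that counts as shared and the boundary distance. Computation used SciPy 1.17.1, pandas 2.3.3, NumPy 2.4.6, Matplotlib 3.10.9 and Python 3.11.15.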

Additional observations from a re-analysis of the deposited data

How the results depend on the processing

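Of 63 recomputed counts, 53 stayed within 1.5 times the value from the deposited lists. The siREXO4 gained count was 5 under all 7 alternatives and the siCtrl count 4 under all 5. With peaks of at least 5-fold enrichment, gained siRNaseH1 genes numbered 3 of 10 (with 27.8% of all genes called, the share given in brackets hereafter), genes with a peak gained in both knockdowns 3 (13.1%; 5 in the deposited lists), gained siRNaseH1 boundary genes 1 (18.2%, so the members' share lay below that of all genes) and siRNaseH1 peaks 6. With lists of equal length these were 2 (14.2%), 3 (8.98%), 1 (10.6%) and 4, and siREXO4 peaks numbered 9. Both settings remove peaks of low fold or high p-value by construction. With a boundary distance of 5 kb, siCtrl boundary genes numbered 2 (7.73%). No paired analysis was possible because each list was called on merged replicates, and leaving out a replicate was not run for the same reason. Read depth is unknown, and the comparisons of coverage between lists rest on the lowest background of each list. Gained peaks of 9 to 13 fragments have, after scaling, counting intervals that span the siCtrl calling limit. So do many gained peaks with more fragments, among them siRNaseH1 peaks of TP53INP1 (18 fragments), PHLDA3 (19) and MDM2 (23). The intervals of the CDKN1A and XPC promoter peaks lay above the limit in both knockdowns.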

Other observations

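Paralogs of the members were looked up as a further list. Of 9 such genes, 7 held a siREXO4 peak, 7 a siRNaseH1 peak and 2 a siCtrl peak, beside 33.7%, 39.2% and 12.0% of all protein-coding genes. Boundary peaks without a siCtrl overlap occurred at 7 in siREXO4 and at 6 in siRNaseH1, beside 21.1% and 25.1%. MDM4 is counted here and among the p53 regulators. TP53INP2, an autophagy gene, had folds of 15.6 in siREXO4 and 11.1 in siRNaseH1 near its start. The PHLDA3 relative PHLDA2 had 8.50 and 9.63, with both summits outside the gene. BTG3, an antiproliferative gene of the BTG2 family, had 7.47 and 9.76, and a siCtrl peak of 3.17 elsewhere in the gene. GADD45G held no peak in any list, and SESN3 held 1 siRNaseH1 peak of 3.82. These genes were chosen by family, with earlier results of these data known.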
